A study of Sus scrofa with 32 samples.

Results

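The genes described here are 10 members of the prostaglandin system of the pig endometrium, out of 30185 genes counted. They were chosen by name for their role, with earlier results of these data known. They are the cyclooxygenases PTGS1 and PTGS2, the terminal synthases PTGES and PTGIS, the degrading enzyme HPGD, the transporter SLCO2A1, the receptors PTGFR, PTGER2 and PTGER4, and the oxytocin receptor OXTR. Of these, 9 were detectable in luminal epithelium (LE), 7 in glandular epithelium (GE), 8 in blood vessels (BV) and 8 in stroma (S), which means that they were in the count table that the authors had filtered by a minimum CPM (counts scaled to a common library total). The detectable members in all 4 compartments numbered 7, and PTGS1 was detectable in none.

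The compartments were cut by laser capture microdissection from frozen endometrium of 8 gilts on Day 14. The labels count this day from ovulation, and the study's methods count it from insemination. All 8 gilts were prepuberal when their cycles were synchronised with eCG and hCG. The 4 pregnant gilts were inseminated with semen, and the 4 cyclic controls received semen supernatant of the same boar. Libraries are called as in the labels, by state (C, cyclic control; P, pregnant), compartment (L, G, B or S) and number of the gilt, so that CL78, CG78, CB78 and CS78 came from gilt 78. In pregnant gilts the tissue came from the hyperaemic zones where conceptuses attach, after the conceptus had been taken off, so the state and the site of sampling cannot be told apart. No column of counts was used for GE of pregnant gilt 41, so pregnant GE has n = 3, every other group has n = 4, and there were 31 libraries. Library totals ran from 2415216 to 7081556 counts.

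Prostaglandins are made from arachidonic acid, which phospholipases release from membranes. Cyclooxygenases turn it into prostaglandin H2, and terminal synthases turn that into prostaglandin E2, prostacyclin or prostaglandin F2-alpha. In the cyclic pig, prostaglandin F2-alpha from the endometrium reaches the ovary and ends the life of the corpora lutea, and oxytocin acting on its receptor stimulates this release. In early pregnancy the corpora lutea persist, and prostaglandin E2 is known as a luteoprotective signal. Prostaglandins are taken up into cells by SLCO2A1 and inactivated by HPGD.

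Levels are CPM after TMM normalization of all libraries together, and within each compartment the states were set against each other by the quasi-likelihood test of edgeR. Calls in LE used a false discovery rate of 1%, and those in GE, BV and S used the unadjusted p that this rate reached in LE, 3.28e-04, as their upper limit. By this rule 1 of 9 tested members was called in LE, where 3.32% of all genes were, 0 of 7 in GE (0.748% of all genes), 1 of 8 in BV (1.86%) and 0 of 8 in S (0.293%). The called members were HPGD, which was lower in pregnant LE, and PTGER2, which was higher in pregnant BV. EdgeR's robust GLM, the test of the study's methods, called 4 members in LE (11.8% of all genes), 2 in GE (6.66%), 1 in BV (11.0%) and 2 in S (3.16%). DESeq2 called 3 in LE (11.2% of all genes), 1 in GE (6.64%), 1 in BV (8.50%) and 0 in S (2.60%). An unadjusted p under 0.05 was reached by 5 of 9 members in LE beside 26.9% of all genes, 3 of 7 in GE beside 23.0%, 2 of 8 in BV beside 28.5% and 1 of 8 in S beside 14.5%.

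**Figure D1:**
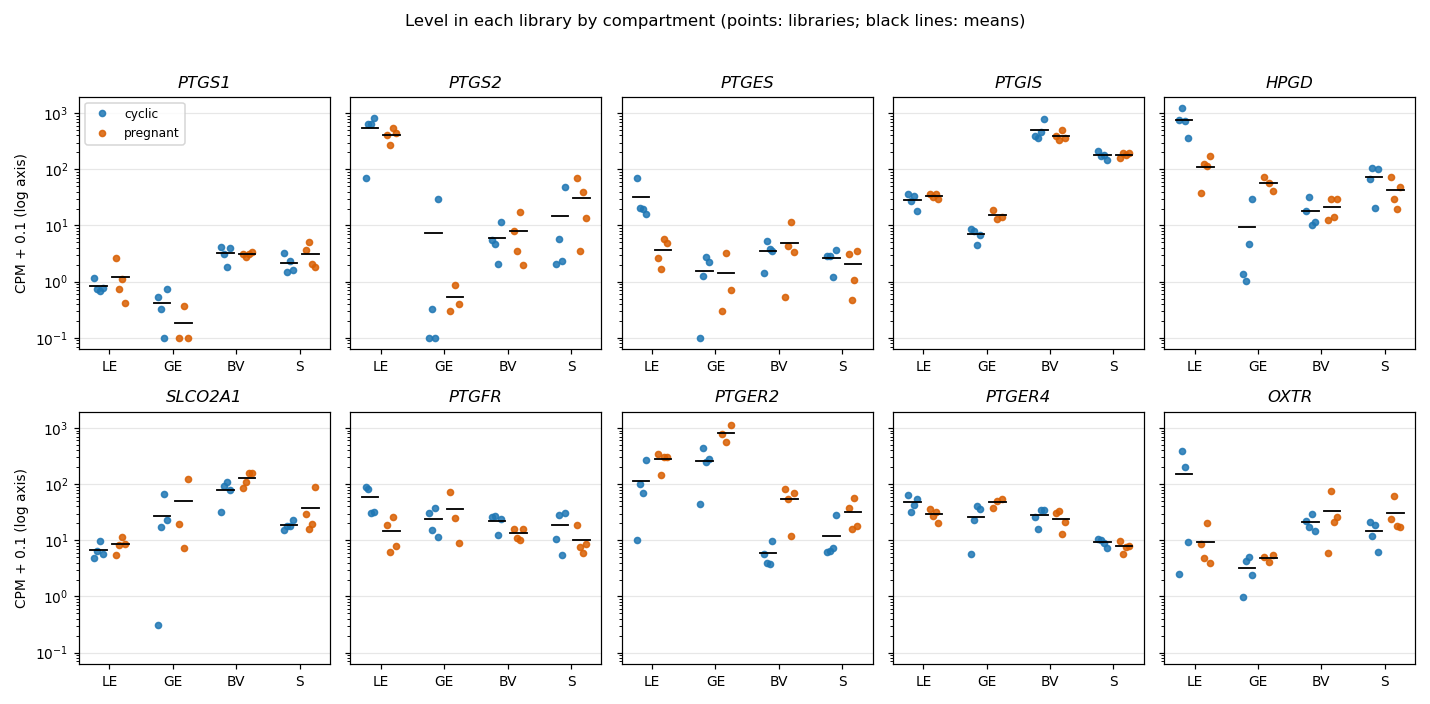
Level of each gene in each library, as CPM + 0.1 on a log axis, by compartment (LE, GE, BV and S) and state (blue, cyclic; orange, pregnant), with black lines at the group means. PTGS2 and HPGD were highest in LE, PTGIS and SLCO2A1 in BV and PTGER2 in GE, and PTGS1 stayed at or under 4.94 CPM in all 31 libraries.

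The captures carried the markers of their labelled tissue, with RNA of neighbouring tissue beside them. The summed level of 12 epithelial markers lay between 3238 and 3756 CPM in cyclic and between 2924 and 3387 CPM in pregnant LE libraries, and between 1847 and 2346 CPM in GE libraries. In BV it lay between 3.97 and 62.6 CPM in cyclic and between 201 and 387 CPM in pregnant gilts, and in S between 12.0 and 206 CPM and between 44.0 and 597 CPM. Endothelial markers summed to between 1593 and 3159 CPM in BV and reached 2930 CPM in S, so BV and S overlapped in them. The list of 7 fibroblast markers summed to between 4235 and 17345 CPM in LE. The 4 gland markers summed to between 70.5 and 255 CPM in cyclic and between 75.2 and 95.8 CPM in pregnant GE, against 0.856 to 13.4 CPM in LE, although SPINK1 among them was at 0 in every group. In GE 2 of them were tested, with a median log2 fold change of -3.25, 1 higher in pregnant gilts and 0 called. The 8 trophoblast markers summed to 15.4 CPM in PL43, against 1.31 to 3.82 CPM in the other LE libraries, to between 0.380 and 9.12 CPM in pregnant and between 0.729 and 7.19 CPM in cyclic S, and to 3.71 CPM or less in BV and 0.597 CPM or less in GE. None of the trophoblast markers passed the filter in any compartment, and IL1B2, CYP17A1 and CDX2 were at 0 in every group.

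In LE the 2 cyclooxygenases differed widely in level, and nearly all cyclooxygenase counts there were those of PTGS2. PTGS1 (gene ID 397541, chromosome 1 from 262456106 to 262482159, Sscrofa11.1), the form that many cells express constantly, was below the filter in each compartment. Its means ran from 0.0873 ± 0.151 CPM (SD, n = 3) in pregnant GE to 3.14 ± 1.06 CPM (SD, n = 4) in cyclic BV. PTGS2 (gene ID 397590, chromosome 9 from 127850164 to 127858866), the inducible form, had 71.2, 642, 637 and 804 CPM in cyclic LE libraries CL128, CL40, CL42 and CL78. In pregnant LE libraries PL139, PL39, PL41 and PL43 it had 403, 274, 543 and 439 CPM. The groups overlapped, CL128 was the lowest of the 8 libraries, and PTGS2 did not pass the test in LE (log2 fold change -0.38, with 0.58 as its standard error, adjusted p = 0.719 from edgeR's quasi-likelihood test). Per kb of exon length, the scale on which genes can be compared, PTGS2 had a mean level of 149 CPM per kb in cyclic and 115 CPM per kb in pregnant LE, against 0.280 and 0.426 CPM per kb for PTGS1.

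The promoters of the pair are shown because their levels in LE lay so far apart, each from 250 bases before to 50 bases after the gene start of RefSeq in Sscrofa11.1, 5′ to 3′ on the strand of the gene. Capitals mark a CRE core (TGACG), an E-box (CACGTG) and a C/EBP core (TTGCGNAA), searched on both strands, so that a match on the other strand reads as its reverse complement.
PTGS1, chr1:262455856-262456155, plus strand: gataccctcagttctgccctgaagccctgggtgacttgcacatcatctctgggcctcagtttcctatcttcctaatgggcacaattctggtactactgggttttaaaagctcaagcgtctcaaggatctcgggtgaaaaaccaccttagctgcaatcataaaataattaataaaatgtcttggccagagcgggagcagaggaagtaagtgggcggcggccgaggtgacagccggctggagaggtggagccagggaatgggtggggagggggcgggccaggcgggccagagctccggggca
PTGS2, chr9:127858817-127859116, minus strand: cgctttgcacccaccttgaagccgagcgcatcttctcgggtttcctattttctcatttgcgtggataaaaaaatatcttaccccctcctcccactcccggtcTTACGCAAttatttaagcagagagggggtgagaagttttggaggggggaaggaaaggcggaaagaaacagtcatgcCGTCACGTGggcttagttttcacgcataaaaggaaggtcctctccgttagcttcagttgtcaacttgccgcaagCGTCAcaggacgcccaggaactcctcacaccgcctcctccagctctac
In the PTGS2 window a CRE core lay at position -72 and another at position 3 from the gene start, both on the other strand. An E-box at position -69 shared its first letters with the upstream CRE core, and a C/EBP core lay at position -148. CRE and C/EBP elements are known from the promoters of this gene in other mammals. Of 19548 promoters of protein-coding genes, 24.2% held a CRE core, 7.92% an E-box and 1.07% this C/EBP core. The PTGS1 window held none of these 3 motifs and a pair of GC boxes (GGGCGG), a motif present in 50.6% of promoters. A match is a run of letters and not a measured site, and the other motifs searched were the TATA box (TATAAA), the AP-1 site (TGANTCA), the oestrogen response element core (GGTCA), the steroid response element core (TGTTCT) and the NF-kB site (GGGANTTCC). The core of a CRE, oestrogen or steroid response element is here only a part of the full element, so a match is not a full one.

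Outside LE, PTGS2 was low. In GE it had 0, 0.231, 0 and 29.0 CPM in cyclic libraries CG128, CG40, CG42 and CG78 and 0.197, 0.786 and 0.299 CPM in pregnant libraries PG139, PG39 and PG43, and it was below the filter. Cyclic gilt 78 therefore held nearly all PTGS2 counts of GE, 137 of 143. In S the cyclic gilts had 1.93, 5.61, 2.19 and 47.8 CPM and the pregnant gilts 69.2, 3.42, 38.98 and 13.6 CPM. The groups overlapped, and PTGS2 in S did not pass the quasi-likelihood test (log2 fold change 1.09, standard error 1.06, adjusted p = 0.679), while the robust GLM called it (adjusted p = 0.0268). The log2 fold change was 3.29 without CS78 and 0.36 without PS139, and neither was a call. The libraries of S with PTGS2 above 10 CPM, CS78, PS139, PS41 and PS43, had summed epithelial markers of 193, 348, 597 and 147 CPM. CS128 had 206 CPM of these markers with 1.93 CPM of PTGS2, and the LE library of the same gilt, CL128, had 71.2 CPM of PTGS2. The part of epithelial RNA in the level of PTGS2 in S was not tested. The annotated exons of PTGS2 share 108 bases with those of PLA2G4A on the opposite strand, and as the counting by strand is not given in the sources used here, reads of these bases cannot be assigned to 1 of both genes. PLA2G4A had 6665 counts and PTGS2 16572 counts in LE over 8 libraries, so the levels of both are uncertain by what falls on these bases.

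PTGES, the inducible synthase of prostaglandin E2, was lower in pregnant LE by an amount close to the limit of the call. PTGES (gene ID 654407, chromosome 1 from 269911785 to 269924481) had 71.2, 20.5, 19.4 and 15.9 CPM in cyclic LE libraries CL128, CL40, CL42 and CL78 and 2.57, 1.59, 5.57 and 4.802 CPM in pregnant LE libraries PL139, PL39, PL41 and PL43. The groups did not overlap, and CL128, the lowest in PTGS2, was the highest in PTGES. The means were 31.8 ± 26.4 CPM (SD, n = 4) and 3.63 ± 1.86 CPM (SD, n = 4), and the fold change on the log2 scale was -3.05 (standard error 0.58, adjusted p = 0.0119 from edgeR's quasi-likelihood test). PTGES was thus not called at 1%, but it was called by DESeq2 (adjusted p = 3.5e-06) and by the robust GLM (adjusted p = 1.5e-07). Without CL128 the quasi-likelihood test called it as well, at a log2 fold change of -2.31 (adjusted p = 0.00868), and likewise without CL78 (adjusted p = 0.00959). In GE, BV and S it was below the filter, with group means from 1.31 to 4.86 CPM. The mean of pregnant LE lay within this range, so PTGES may have passed the filter of LE through the cyclic libraries alone. Its p-values and calls in LE are to be read with that limit.

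PTGIS, the prostacyclin synthase, was a gene of the vessels and stroma in both states. PTGIS (gene ID 100126284, chromosome 17 from 51153151 to 51200515) had 390, 357, 471 and 776 CPM in BV of cyclic and 390, 328, 498 and 363 CPM in BV of pregnant gilts. In S it had between 144 and 215 CPM in cyclic and between 158 and 196 CPM in pregnant gilts, and in LE between 18.2 and 36.9 CPM and between 29.1 and 36.5 CPM. None of these comparisons of states passed the test, with log2 fold changes of -0.33 in BV, 0.03 in S and 0.24 in LE. In GE, where PTGIS was lowest, the cyclic libraries CG128, CG40, CG42 and CG78 had 8.43, 7.84, 4.44 and 6.78 CPM and the pregnant libraries PG139, PG39 and PG43 had 18.5, 13.1 and 14.3 CPM. The groups in GE did not overlap, at a log2 fold change of 1.15 (standard error 0.27) and an adjusted p of 0.0702 by edgeR's quasi-likelihood test, which was not a call. Both DESeq2 (adjusted p = 0.00818) and the robust GLM (adjusted p = 0.0123) called PTGIS in GE. Endothelial markers in GE summed to between 17.2 and 47.9 CPM in cyclic and between 19.7 and 190 CPM in pregnant gilts, with 5 of 5 tested markers higher in pregnant gilts and 0 called, and their part in the level of PTGIS was not tested.

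HPGD, the enzyme that oxidises prostaglandins to inactive metabolites, was lower in pregnant than in cyclic LE. HPGD (gene ID 100156186, chromosome 14 from 15718261 to 15773534) had 762, 1223, 731 and 355 CPM in cyclic LE libraries CL128, CL40, CL42 and CL78. In pregnant LE libraries PL139, PL39, PL41 and PL43 it had 38.3, 124, 117 and 170 CPM. The groups did not overlap, and the lowest cyclic library, that of gilt 78, still lay above the highest pregnant one. The mean fell from 768 ± 356 CPM (SD, n = 4) to 112 ± 54.5 CPM (SD, n = 4). On the log2 scale the fold change was -2.76 (standard error 0.48, adjusted p = 0.00845 from edgeR's quasi-likelihood test). The call held without cyclic gilt 78 and was lost without any 1 of the other 7 libraries, where the adjusted p lay between 0.0135 and 0.0293, while the log2 fold change stayed between -3.04 and -2.45. DESeq2 (adjusted p = 1.3e-07) and the robust GLM (adjusted p = 1.4e-08) called it too. Markers of other cells moved in LE as well. Leukocyte markers summed to between 44.6 and 100.4 CPM in cyclic and between 94.8 and 170 CPM in pregnant LE (4 of 4 tested markers higher, 0 called, MS4A1 at 0 in both groups), and endothelial markers to between 137 and 767 CPM and between 430 and 1079 CPM (8 of 8 tested markers higher, 0 called). Of the 12 epithelial markers, 5 were higher in pregnant LE, with 1 called higher and 2 called lower. The part of these tissues in the level of HPGD was not tested.

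In GE the values of HPGD went the other way. In cyclic libraries CG128, CG40, CG42 and CG78 it had 1.30, 0.922, 4.65 and 29.7 CPM, and in pregnant libraries PG139, PG39 and PG43 71.4, 57.4 and 40.6 CPM. The groups did not overlap, and cyclic gilt 78 lay far above the other 3 cyclic gilts. The log2 fold change was 2.60 (standard error 0.98, adjusted p = 0.167 from edgeR's quasi-likelihood test), which was not a call. The quasi-likelihood test called it without cyclic gilt 78, at a log2 fold change of 4.57 (adjusted p = 0.0543), and the robust GLM called it with all libraries (adjusted p = 6.0e-12), while DESeq2 did not (adjusted p = 0.0567). Apart from CG78, the cyclic libraries lay within the levels of members below the filter. HPGD may therefore have passed the filter of GE through the pregnant libraries, and its p-values and calls in GE are to be read with that limit. Cyclic gilt 78 was also the one GE library with PTGS2 above 1 CPM, at 29.0 CPM, and in its LE PTGS2 and HPGD had 804 and 355 CPM. CG78 also held 5.20% of its counts in ribosomal RNA genes, against 11.3% or more in every other library. The part of this difference in its levels was not tested. In pregnant GE, PTGS2, which had 274 CPM or more in pregnant LE, was at or under 0.786 CPM. Leukocyte markers summed to between 28.1 and 38.2 CPM in cyclic and between 92.2 and 122 CPM in pregnant GE (5 of 5 tested markers higher, 0 called, with MS4A1 at 0 in both groups and NCR1 at 0 in cyclic GE), and their part in the level of HPGD was not tested.

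BV and S showed no call for HPGD. In BV the cyclic libraries CB128, CB40, CB42 and CB78 had 18.2, 32.7, 10.2 and 11.5 CPM and the pregnant libraries PB139, PB39, PB41 and PB43 had 12.3, 29.2, 14.2 and 28.9 CPM. In S they had 66.1, 104, 20.8 and 101 CPM and 72.7, 29.2, 19.7 and 47.7 CPM. The groups overlapped in both compartments, with log2 fold changes of 0.23 (standard error 0.42, adjusted p = 0.751) in BV and -0.78 (standard error 0.50, adjusted p = 0.515) in S by edgeR's quasi-likelihood test. The level of 104 CPM in S of cyclic gilt 40 stood beside 16.8 CPM of summed epithelial markers in that library.

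The promoter of HPGD is shown as that of the member called in LE, with the same window and strand rules as above and no letters in capitals, since it held no CRE core, E-box, C/EBP core or TATA box.
HPGD, chr14:15718011-15718310, plus strand: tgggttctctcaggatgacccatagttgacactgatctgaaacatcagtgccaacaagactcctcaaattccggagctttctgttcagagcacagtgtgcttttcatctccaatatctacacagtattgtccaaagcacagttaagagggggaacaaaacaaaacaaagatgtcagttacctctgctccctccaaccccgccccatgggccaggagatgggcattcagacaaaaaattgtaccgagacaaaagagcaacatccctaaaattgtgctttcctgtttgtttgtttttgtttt
The window held 1 oestrogen response element core (GGTCA) at position -235, a run of letters found in 37.6% of promoters, and 1 GC box at position -53, both on the other strand. It held 3 CG dinucleotides at a GC content of 44.0%, against medians of 16 and 58.7% over all promoters.

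Whether the change with pregnancy differed between compartments was tested as an interaction in 1 fit of all libraries with the gilt as a block, over 9727 genes detectable in all 4 compartments. For HPGD the log2 fold change in GE exceeded that in LE by 5.63 (standard error 1.07, adjusted p = 0.00401 from edgeR's quasi-likelihood test), which was called at a false discovery rate of 1% together with 1.54% of all genes. HPGD may have entered these 9727 genes through the pregnant GE libraries, so this call has the limit given for HPGD in GE. The difference in HPGD was 3.06 for BV minus LE (standard error 0.96, adjusted p = 0.0478) and 2.19 for S minus LE (standard error 0.94, adjusted p = 0.208), which were not called, beside 3.37% and 1.48% of all genes called in these contrasts. The test over all 4 compartments gave HPGD an adjusted p of 0.0106, just short of the limit, with 3.05% of all genes called, and an adjusted p of 0.00701 without the block, which is a call. Leaving out any 1 of the gilts other than 78 and 41 in every compartment lost the call of GE minus LE (adjusted p between 0.0139 and 0.0312), with differences between 5.02 and 6.09. Without gilt 78 the difference was larger, at 7.32 (adjusted p = 5.0e-04), and without gilt 41 it was 5.85.

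**Figure D2:**
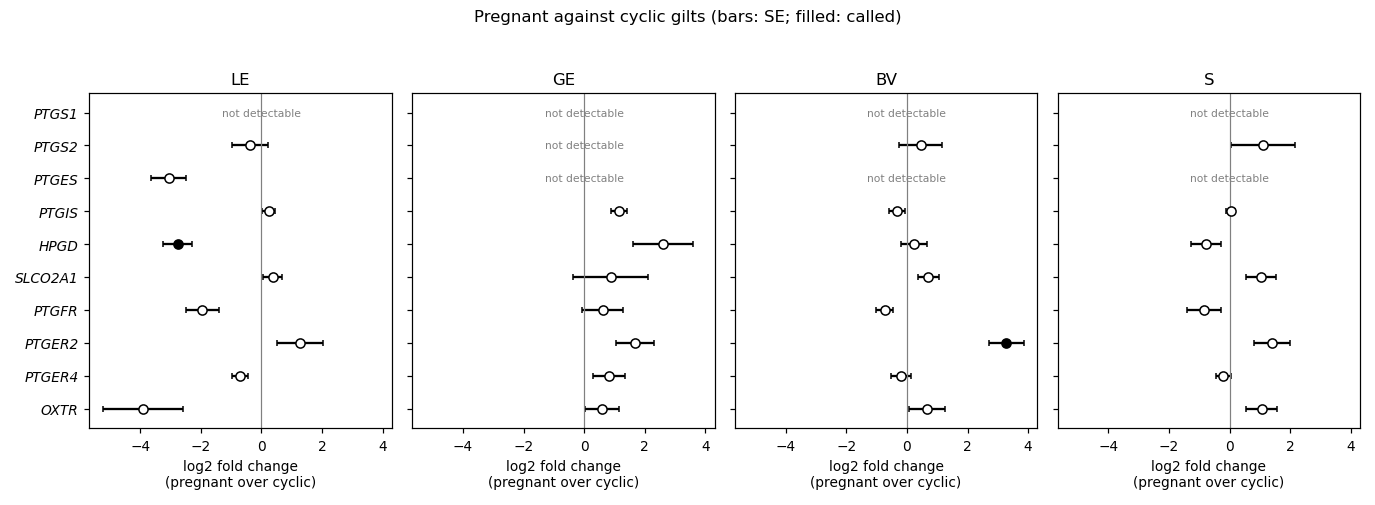
Log2 fold change of each gene in pregnant over cyclic gilts (x axis) in LE, GE, BV and S, with the standard error as bars, filled points for called genes and a label where a gene was not detectable. HPGD lay at -2.76 in LE and at 2.60 in GE, PTGER2 was above 0 in all 4 compartments, and OXTR had the widest error in LE, at 1.33.

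**Figure D3:**
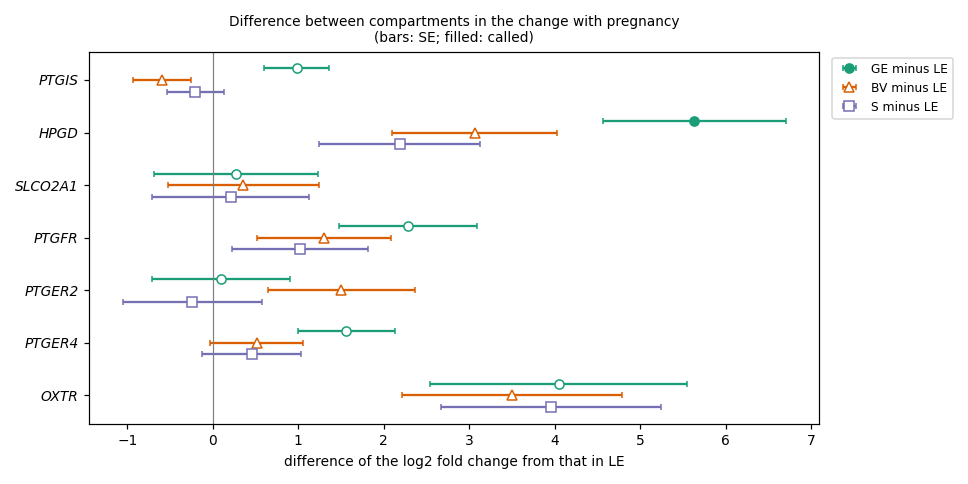
Difference of the log2 fold change with pregnancy in GE, BV and S from that in LE (x axis) for the 7 genes detectable in all 4 compartments, with the standard error as bars and a filled point where the difference was called. The point of HPGD for GE minus LE, at 5.63, is the filled one.

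Since HPGD was called in LE and PTGS2 was not, the ratio of the pair per kb of exon length was taken as a description of each LE library, with no test. It was 0.197, 1.11, 1.84 and 4.78 in cyclic libraries CL128, CL40, CL42 and CL78 and 22.2, 4.67, 9.84 and 5.46 in pregnant libraries PL139, PL39, PL41 and PL43. The groups overlapped by cyclic gilt 78, which lay just above pregnant gilt 39. HPGD RNA thus exceeded PTGS2 RNA per length in CL128 alone of the 8 LE libraries.

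SLCO2A1, the transporter that carries prostaglandins into cells where HPGD acts, was highest in BV. SLCO2A1 (gene ID 100144510, chromosome 13 from 75108540 to 75189660) had 32.3, 94.1, 107 and 79.5 CPM in cyclic BV libraries CB128, CB40, CB42 and CB78 and 85.01, 109, 155 and 160 CPM in pregnant BV libraries PB139, PB39, PB41 and PB43. The groups overlapped, with a log2 difference of 0.71 (0.34 standard error, adjusted p = 0.205 from edgeR's quasi-likelihood test). In LE, where HPGD was highest, SLCO2A1 had between 4.82 and 9.70 CPM in cyclic and between 5.40 and 11.4 CPM in pregnant gilts. In GE the cyclic gilts had 0.216, 17.1, 66.9 and 22.7 CPM and the pregnant libraries PG139, PG39 and PG43 had 19.1, 7.34 and 123 CPM. Without pregnant gilt 43 the log2 fold change in GE turned from 0.87 to -1.04. Pregnant gilt 43 had the highest level of its group in GE, BV and S, where it had 87.9 CPM against 15.6 to 29.5 CPM in the other pregnant gilts.

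Among the receptors, PTGER2 reached the highest level per kb of exon length, a mean of 136 CPM per kb in pregnant GE, and its log2 fold change was above 0 in each compartment. PTGER2 (gene ID 100127164, chromosome 1 from 181993961 to 182009959), the EP2 receptor that raises cyclic AMP when it binds prostaglandin E2, had 44.3, 446, 250 and 285 CPM in cyclic GE libraries CG128, CG40, CG42 and CG78. In pregnant GE libraries PG139, PG39 and PG43 it had 779, 560 and 1127 CPM. The groups did not overlap in GE, with a log2 difference of 1.67 (0.63 standard error, adjusted p = 0.169 from edgeR's quasi-likelihood test), which none of the 3 tests called. In LE the cyclic gilts had 9.90, 99.8, 69.0 and 271 CPM and the pregnant libraries PL139, PL39, PL41 and PL43 had 349, 145, 307 and 304 CPM. The groups in LE overlapped by cyclic gilt 78, with a log2 difference of 1.28 (0.75 standard error, adjusted p = 0.315), and 0 of the 3 tests called it. Without CL78 it was 2.24 (adjusted p = 0.0630). CL128 and CG128, from the same gilt, were the lowest of both epithelia.

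In BV, PTGER2 rose in pregnant gilts, to a mean of 54.5 ± 30.5 CPM (SD, n = 4) from 5.77 ± 2.82 CPM (SD, n = 4) in the cyclic ones. The cyclic libraries CB128, CB40, CB42 and CB78 had 5.72, 3.90, 3.69 and 9.77 CPM and the pregnant libraries PB139, PB39, PB41 and PB43 had 82.5, 55.3, 11.9 and 68.3 CPM. The groups did not overlap, and pregnant gilt 41 lay near the highest cyclic gilt. The log2 fold change was 3.28 (standard error 0.57, adjusted p = 0.0163 from edgeR's quasi-likelihood test), and DESeq2 and the robust GLM called it too. The call held without cyclic gilt 78 or pregnant gilt 41 and was lost without any 1 of cyclic libraries CB128, CB40 and CB42 and pregnant libraries PB139, PB39 and PB43, with log2 fold changes between 3.02 and 3.63 over all 8. The cyclic levels lay near those of members below the filter, so PTGER2 may have passed the filter of BV through the pregnant libraries. Its p-values and calls in BV are to be read with that limit.

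Epithelial and gland markers, like PTGER2, were higher in pregnant BV without overlap of the groups. The summed level of the epithelial markers was 33.6, 62.6, 3.97 and 33.1 CPM in cyclic BV libraries CB128, CB40, CB42 and CB78 and 387, 259, 201 and 212 CPM in pregnant BV libraries PB139, PB39, PB41 and PB43, with 9 of 9 tested markers higher in pregnant gilts, 2 of them called, and 0 of 12 at 0 in either group. PTGER2 was 21.3%, 21.4%, 5.92% and 32.2% of that sum in BV of the pregnant gilts, against 41.2%, 23.9% and 50.4% in pregnant GE libraries PG139, PG39 and PG43 and between 4.95% and 11.3% in pregnant LE. In cyclic BV libraries CB128, CB40, CB42 and CB78 it was 17%, 6.22%, 92.9% and 29.5%, on sums of 62.6 CPM or less. The shares in BV thus overlapped between the states. Gland markers summed to between 4.26 and 11.09 CPM in cyclic and between 17.1 and 37.6 CPM in pregnant BV, without overlap, and the 1 tested was higher and not called. Leukocyte markers summed to between 170 and 320 CPM in cyclic and between 116 and 435 CPM in pregnant BV (6 of 6 tested markers higher, 0 called). The groups overlapped in this sum. PB139, the highest in PTGER2, had the lowest sum at 116 CPM, and PB41, the lowest pregnant library in PTGER2, had the highest at 435 CPM. Smooth muscle markers summed to between 5370 and 17567 CPM in cyclic and between 799 and 7035 CPM in pregnant BV, with 0 of 8 tested markers higher in pregnant gilts and 0 called. The part of these tissues in the level of PTGER2 was not tested, and in bulk captures fewer cells of a type and less RNA per cell cannot be told apart.

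PTGER2 in S followed a similar layout of values. Cyclic libraries CS128, CS40, CS42 and CS78 had 5.99, 6.45, 7.29 and 28.6 CPM and pregnant libraries PS139, PS39, PS41 and PS43 had 37.9, 15.6, 57.6 and 17.7 CPM. The groups overlapped by cyclic gilt 78, with a log2 difference of 1.39 (0.60 standard error, adjusted p = 0.329 from edgeR's quasi-likelihood test), while the robust GLM called it (adjusted p = 0.0055) and DESeq2 did not. Without CS78 the value was 2.31 (adjusted p = 0.103). Summed epithelial markers in S were 206, 16.8, 12.0 and 193 CPM in the cyclic and 348, 44.0, 597 and 147 CPM in the pregnant gilts, in the same order of gilts, with 10 of 10 tested markers higher in pregnant gilts and 0 called, and their part was not tested here either. The change of PTGER2 with pregnancy in BV exceeded that in LE by 1.504 (standard error 0.86, adjusted p = 0.282), so no difference between the compartments was called. The exons of PTGER2 share 125 bases with those of PTGDR on the same strand, and PTGDR had 576 counts in GE against 14594 of PTGER2 and 99 in BV against 622.

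**Figure D4:**
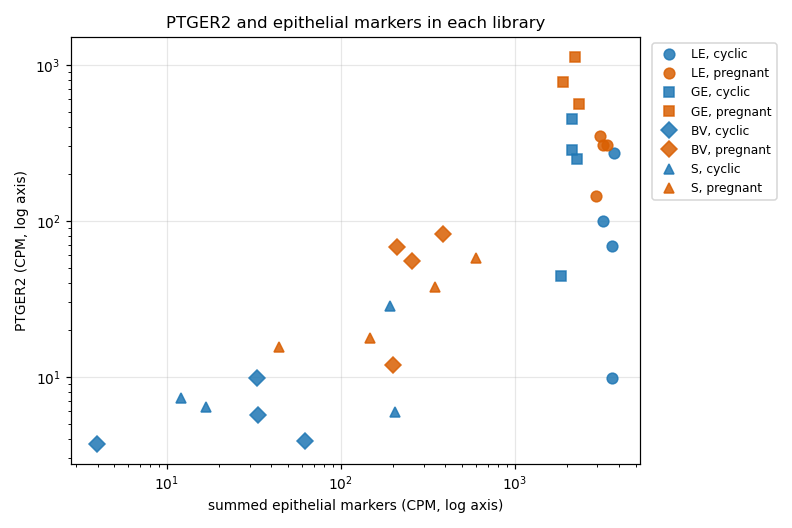
Level of PTGER2 (y axis, CPM) against the summed level of 12 epithelial markers (x axis, CPM) in each library, both on log axes, with the compartment as the shape and the state as the colour of a point (blue, cyclic; orange, pregnant). The pregnant BV libraries lie to the right of and above the cyclic ones, at 201 to 387 CPM of markers and 11.9 to 82.5 CPM of PTGER2.

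PTGER4, the EP4 receptor that also raises cyclic AMP, showed no call in the comparison of states in any compartment. PTGER4 (gene ID 100625072, chromosome 16 from 25670832 to 25686556) had 63.7, 32.1, 41.7 and 53.7 CPM in LE of cyclic and 36.2, 27.4, 31.7 and 19.8 CPM in LE of pregnant gilts. The groups overlapped by cyclic gilt 40, with a log2 difference of -0.71 (0.26 standard error, adjusted p = 0.115 from edgeR's quasi-likelihood test). In GE the range was 5.62 to 40.4 CPM in cyclic and 37.0 to 53.5 CPM in pregnant gilts, in BV 15.9 to 34.9 CPM and 12.6 to 32.6 CPM, and in S 7.19 to 10.2 CPM and 5.69 to 9.82 CPM.

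PTGFR, the receptor of prostaglandin F2-alpha, was lower in pregnant LE without passing the quasi-likelihood test at 1%. PTGFR (gene ID 397126, chromosome 6 from 134727334 to 134777067) had 89.6, 82.6, 29.96 and 31.6 CPM in cyclic LE libraries CL128, CL40, CL42 and CL78 and 18.8, 6.05, 25.8 and 7.68 CPM in pregnant LE libraries PL139, PL39, PL41 and PL43. The groups did not overlap, though the lowest cyclic and the highest pregnant gilt lay close together. The log2 fold change was -1.94 (standard error 0.53, adjusted p = 0.0475 from edgeR's quasi-likelihood test), with adjusted p of 0.00294 by DESeq2 and 1.3e-04 by the robust GLM, which both called it. In GE the groups overlapped widely, at 30.0, 15.4, 36.8 and 11.2 CPM in cyclic and 73.4, 24.4 and 8.96 CPM in pregnant gilts, and without PG139 the log2 fold change turned from 0.61 to -0.48. In BV it was -0.73 (standard error 0.29, adjusted p = 0.130) and in S -0.85 (standard error 0.55, adjusted p = 0.513), with overlapping groups in both.

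OXTR, the receptor that couples oxytocin to phospholipase C, split the cyclic gilts in LE. OXTR (gene ID 397092, chromosome 13 from 65134055 to 65155543) had 385 and 200.3 CPM in cyclic LE libraries CL40 and CL42 and 2.41 and 9.10 CPM in cyclic LE libraries CL128 and CL78. In pregnant LE libraries PL139, PL39, PL41 and PL43 it had 8.48, 4.77, 20.6 and 3.84 CPM. The groups overlapped, since the other two cyclic gilts lay within or under the range of the pregnant ones. The log2 fold change was -3.90 with a standard error of 1.33 (adjusted p = 0.0905 from edgeR's quasi-likelihood test, 0.0194 from DESeq2 and 0.00205 from the robust GLM, which called it). Without cyclic gilt 40 it was -2.83 (adjusted p = 0.223). At the depth of these libraries the low values were still counted, with 9 and 40 reads in cyclic LE libraries CL128 and CL78 against 1763 and 702 in gilts 40 and 42.

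**Figure D5:**
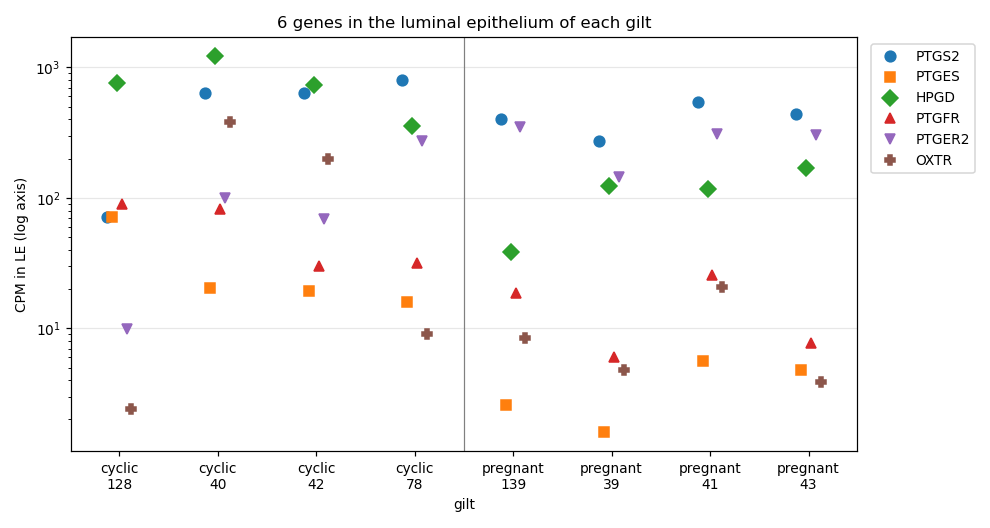
Level of PTGS2, PTGES, HPGD, PTGFR, PTGER2 and OXTR in LE of each gilt (x axis), in CPM on a log axis, with the cyclic gilts on the left and the pregnant gilts on the right of the line. OXTR stood at 385 and 200.3 CPM in cyclic libraries CL40 and CL42 and at 20.6 CPM or less in the other 6 gilts, and CL128 had the lowest PTGS2 and PTGER2 and the highest PTGES of the 8.

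In GE, OXTR was at 5.38 CPM or less in all 7 libraries, with 0.864, 4.15, 5.05 and 2.33 CPM in CG128, CG40, CG42 and CG78 and 4.92, 3.93 and 5.38 CPM in PG139, PG39 and PG43. The cyclic GE libraries of gilts 40 and 42 thus also lay above the other two, at 18 and 25 counts against 4 and 11. BV and S did not show this order of the cyclic gilts. OXTR had 21.9, 17.1, 29.2 and 14.4 CPM in cyclic BV libraries CB128, CB40, CB42 and CB78 and 5.92, 76.9, 21.5 and 26.3 CPM in pregnant BV libraries PB139, PB39, PB41 and PB43. In S it had 21.5, 12.1, 18.6 and 5.99 CPM in the cyclic and 24.1, 61.1, 18.0 and 17.03 CPM in the pregnant gilts. Pregnant gilt 39 was the highest library in both BV and S. The log2 fold changes were 0.66 in BV (standard error 0.59, adjusted p = 0.493) and 1.05 in S (standard error 0.50, adjusted p = 0.370 from edgeR's quasi-likelihood test), and the value in BV turned to -0.19 without pregnant gilt 39. The difference of the change from that in LE was 3.96 in S (standard error 1.28, adjusted p = 0.0842), 3.496 in BV (standard error 1.29, adjusted p = 0.0893) and 4.04 in GE (standard error 1.502, adjusted p = 0.133), with 0 of these called.

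Seen together by direction, 6 of the 9 tested members were lower and 3 higher in pregnant LE, with a median log2 fold change of -0.71 against -0.01 for all genes of LE. In GE 7 of 7 were higher, with a median of 0.87 against -0.01 for all genes. In BV 5 of 8 were higher (median 0.34) and in S 5 of 8 (median 0.54), against a median of 0.00 for all genes in both compartments. These counts include members far from the limit of a call and describe the list without testing it.

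The order of compartments by level differed between the members, and it was tested with the gilt as a block over 13887 genes detectable in at least 1 compartment, at a false discovery rate of 1%. Calls are counted over genes detectable in both compartments of a pair, since a gene detectable in 1 of them entered through the compartment where it was high. In cyclic gilts 3 of 7 members differed between LE and GE (26.9% of all such genes), 5 of 8 between LE and BV (38.1%), 5 of 8 between LE and S (38.8%), 3 of 7 between GE and BV (46.2%), 4 of 7 between GE and S (45.1%) and 1 of 8 between BV and S (3.54%). In pregnant gilts the numbers were 1 (22.4% of such genes), 5 (31.3%), 4 (31.3%), 2 (34.5%), 3 (36.0%) and 0 (0.0645%) in the same order of pairs. PTGS2 was higher in LE than in BV and S in both states, with log2 differences from 4.17 to 6.69 and adjusted p from 6.6e-06 to 2.5e-04, and its difference between BV and S was not called. PTGIS ran from BV through S and LE to GE, and each neighbour in that order differed in cyclic gilts (log2 differences of 1.49, 2.63 and 2.07), whereas BV and S did not pass in pregnant gilts (1.10, adjusted p = 0.0207).

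HPGD in cyclic gilts was higher in LE than in S by 3.65, than in BV by 5.53 and than in GE by 6.74 on the log2 scale, and each difference was called. In pregnant gilts the difference between LE and BV (2.44, adjusted p = 0.00771) was called, while those from LE to GE (1.10, adjusted p = 0.273) and from LE to S (1.44, adjusted p = 0.0968) were not. PTGES was detectable in LE alone, so its levels elsewhere are not compared. PTGER2 was lower in LE than in GE by 1.54 in cyclic (adjusted p = 0.0310) and by 1.64 in pregnant gilts (adjusted p = 0.0348), which were not calls, and higher in either epithelium than in BV or S in both states, which were. SLCO2A1 was higher in BV than in LE in both states, by 3.51 and 3.90. Its level in BV exceeded that in S by 1.88 in cyclic (adjusted p = 0.0555) and by 2.03 in pregnant gilts (adjusted p = 0.0864), which were not calls. OXTR in cyclic gilts was higher in LE than in GE by 4.97 (adjusted p = 6.2e-04), a mean that rests on gilts 40 and 42, and 0 of its other differences between compartments was called. PTGER4 was higher in LE and in GE than in S in both states, and PTGFR differed between no pair of compartments at this limit.

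Around the members, the 7 lists of the wider pathway held 70 annotated genes, of which LE had 45 that were tested, GE 42, BV 39 and S 41. The quasi-likelihood test called 3 of the 45 in LE, or 6.67% beside the 3.32% of all genes, and 0 in GE (0.748% of all genes), BV (1.86%) and S (0.293%). An unadjusted p under 0.05 was found for 17 of 45 in LE beside 26.9% of all genes and 11 of 42 in GE beside 23.0%. In BV it was found for 15 of 39 beside 28.5%, and in S for 6 of 41 beside 14.5%. The count of LE includes ESR2, which passed the filter through the libraries where it was high, so that count is not read as a result. The robust GLM and DESeq2 both called ARRB1 and ESR1 in GE, PPARA in BV and ARRB1 in S. In LE the called genes were ANXA1, PTGR1 and ARRB1. ANXA1, an inhibitor of phospholipase A2, fell from 284 ± 103 to 52.2 ± 24.0 CPM (SD, n = 4 each, log2 fold change -2.44, standard error 0.39, adjusted p = 0.00662). PTGR1, which reduces the product of HPGD further, rose from 6.401 ± 2.14 to 30.96 ± 8.68 CPM (log2 fold change 2.28, standard error 0.31, adjusted p = 0.00317), so this next enzyme and HPGD changed in opposite directions in LE. ARRB1, an arrestin that desensitises receptors, rose from 25.6 ± 7.16 to 86.5 ± 11.6 CPM (log2 fold change 1.76, standard error 0.23, adjusted p = 0.00314).

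Of the list of arachidonate release, 8 of 10 genes were tested in LE, with ANXA1 as the one called. PLA2G4A, the cytosolic phospholipase A2, had a mean of 251 CPM in LE of cyclic and 132 CPM in LE of pregnant gilts (log2 fold change -0.92, adjusted p = 0.102). Of 11 other terminal synthases 3 were tested in LE and 0 called. AKR1B1, an aldose reductase with prostaglandin F synthase activity, had 65.7 and 115 CPM in LE (log2 fold change 0.83, adjusted p = 0.486). Of 7 other genes of breakdown and transport 5 were tested in LE and PTGR1 was called, and ABCC4, an exporter of prostaglandins, had 297 and 414 CPM (log2 fold change 0.48, adjusted p = 0.433). Of 10 other prostanoid receptors 5 were tested in LE and 0 called, and PTGER3 and PTGIR were below the filter in each compartment. In BV, PPARA, a nuclear receptor of fatty acids, had 8.09 ± 0.96 and 17.1 ± 5.46 CPM (SD, n = 4 each, log2 fold change 1.08, adjusted p = 0.0380), which both other tests called.

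The list of oxytocin and receptor coupling had 14 of 16 genes tested in each compartment. OXT, the gene of oxytocin itself, was below the filter and reached 13.9 CPM in 1 pregnant LE library. GNAQ carries the signal of PTGFR and OXTR to phospholipase C, and PLCB4 is itself a phospholipase C. GNAQ and PLCB4 had log2 fold changes of -0.74 (adjusted p = 0.0204) and -1.504 (adjusted p = 0.0171) in LE, and both DESeq2 and the robust GLM called them. ARRB1 had log2 fold changes of 2.47 in GE (adjusted p = 0.0451) and 0.91 in S (adjusted p = 0.110 from edgeR's quasi-likelihood test), again called by both other tests. Of the steroid and cytokine receptors, ESR1, the oestrogen receptor alpha, averaged 480 ± 113 CPM in GE of cyclic and 217 ± 52.4 CPM in GE of pregnant gilts (SD, n = 4 and n = 3, log2 fold change -1.15, adjusted p = 0.0566 from edgeR's quasi-likelihood test). ESR2, the oestrogen receptor beta, had 0 counts in the 4 cyclic LE libraries and 144 in the 4 pregnant ones, at least 44.1-fold higher in pregnant LE against a floor of 3 counts over the group. It passed the filter of LE through the pregnant libraries, so its test is not given. GPER1, a membrane receptor of oestrogen, had 19.9 ± 12.8 and 2.63 ± 2.04 CPM in LE (log2 fold change -2.86, adjusted p = 0.0174). It may have passed the filter of LE through the cyclic libraries, so its test has the limit given for PTGES. In the lipoxygenase branch 2 of 8 genes were tested in LE, and ALOX12 had a log2 fold change of 4.14 (adjusted p = 0.0569) with pregnant libraries from 0.571 to 99.0 CPM. ALOX12 may have passed the filter of LE through pregnant libraries, so its tests have the limit given for PTGES. ESR1, GPER1 and ALOX12 were called by DESeq2 and the robust GLM and not by the quasi-likelihood test.

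The genes most like HPGD over the 31 libraries, by Pearson's r of log2(CPM + 1), were LOC110256674 (0.89), ATP6V0A1 (0.86) and KCNMB4 (0.85). LOC110256674 is a pseudogene whose exons share 60 bases with those of HPGD on the same strand, so its likeness cannot be told apart from shared reads. Those most like PTGER2 were PAQR5 (0.96), METTL17 (0.96) and CCDC149 (0.95). The 31 points share gilts and compartments, and PTGER2 separates the epithelia from BV and S, so these values describe the layout of levels and carry no test.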

How the data were processed

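RNA-seq counts of 31 libraries were used. Reads had been trimmed (Trim Galore), aligned to Sscrofa11.1 (Hisat2) and cleared of PCR duplicates (nudup), and the authors deposited whole counts per NCBI gene from QuasR, without normalization, as a full table (30185 genes) and a table filtered by a CPM minimum (12002 genes for LE, 11905 for GE, 11096 for BV, 11935 for S); versions, the minimum and the counting by strand are not given in the sources used here. CG78 holds 5.20% of its counts in 2 ribosomal RNA genes, and every other library holds between 11.3% and 16.9%. A floor of 3 counts over a group is 0.173 to 0.279 CPM and covers counting error only.

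The filtered counts of each compartment were tested in R 4.3.3 with edgeR 4.0.16 and its quasi-likelihood test (TMM, Benjamini-Hochberg adjustment over all genes of the compartment), and DESeq2 1.42.0 and edgeR's robust GLM were run beside it, each with its own limit from LE. Interactions and levels between compartments came from a joint edgeR fit with the gilt as a block. Calls of levels were counted over genes detectable in both compartments of a pair, a choice made after the values were seen. The compartments of a number come from the same gilt, by the labels and the study's methods, and deviations from the group means of the same gilt correlated over compartments with a median r of 0.17 (35 of 45 pairs over 0.1), against -0.05 for other gilts. Replicate libraries differed beyond sampling noise in all 45 pairs within groups, with a chi-square per degree of freedom of at least 6.4, so none was taken for a duplicate. The scripts were tested on simulated data.

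Members, lists and tests were chosen with earlier results of these data known. All 10 members are named. From the 7 lists, genes called by the quasi-likelihood test, or by both other tests, in at least 1 compartment are named, at most 5 per list, other genes being given for their role after their values were seen. For each called member, the 3 genes with the highest Pearson r are named. All 30185 gene IDs matched RefSeq, whose symbols, exon lengths and promoters on Sscrofa11.1 were used. Alternatives were RLE normalization, no filter, filterByExpr, other call limits, no ribosomal RNA genes, no replicate block, genes of any compartment, and leaving out single libraries or gilts.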

Additional observations from a re-analysis of the deposited data

Results flagged for a closer look

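In 57 groups of 4 libraries of detectable members, the library at 1 end stood apart from the others in 5, by the gap to its nearest neighbour over the range of the group (Dixon's test). Chance alone marks about 1 in 20 groups where values are normal and groups independent. CPM values of groups that share gilts need not be either, so no conclusion is drawn from the number. The libraries of cyclic gilt 78 account for 3 of them: PTGS2 in S at 47.8 CPM (next library 5.61 CPM), PTGER2 in S at 28.6 CPM (next 7.29 CPM) and HPGD in GE at 29.7 CPM (next 4.65 CPM). PTGES in CL128 was at 71.2 CPM against 20.5 CPM in the next cyclic gilt. OXTR in S of pregnant gilt 39 was at 61.1 CPM against 24.1 CPM in the next pregnant gilt.

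The change of HPGD with pregnancy differed between GE and LE by 5.63 on the log2 scale, by the test of the difference itself (adjusted p = 0.00401, edgeR's quasi-likelihood test with the gilt as a block). It stood at -2.76 in LE, where 4 of 4 pregnant libraries lay below the 4 cyclic ones, and at 2.60 in GE, where 3 of 3 pregnant libraries lay above them. HPGD may have passed the filter of GE through the pregnant libraries, so the test has the limit given above.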

How the results depend on the processing

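All counts here are of members called. In LE, 1 by the quasi-likelihood test became 3 with DESeq2, 4 with the robust GLM, 2 without a filter (2.17% of all genes) and 3 at a false discovery rate of 5% (10.7%), and ran from 0 to 2 when single libraries were left out, beside 0.842% to 3.66% of all genes. In GE, 0 became 1 with DESeq2 and 2 with the robust GLM, and ran from 0 to 1 (0.319% to 0.924% of all genes). In S, 0 became 2 with the robust GLM. In BV, 1 became 0 at a false discovery rate of 1% within BV, where 0 of 11096 genes were called and 3161 had an unadjusted p under 0.05, and ran from 0 to 1 (0.694% to 2.08% of all genes). Over all genes the quasi-likelihood test, the robust GLM and DESeq2 called, in that order of tests, for LE 398, 1411 and 1342 genes, for GE 89, 793 and 791, for BV 206, 1216 and 943, and for S 35, 377 and 310. The cause of these differences was not tested.

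The libraries of a number are compartments of the same gilt. In the test over all 4 compartments together, 0 members called with the gilt as a block (3.05% of all genes) became 1 (HPGD) without the replicate block (2.09%), and ran from 0 to 1 when single gilts were left out (0.833% to 2.62%). HPGD for GE minus LE was called with the block and without it. Without the block the PTGER2 difference for S minus LE was 0.062 in place of -0.24. The block changed no other call of a member in the comparison of the change between compartments. Of the differences in level between compartments, 36 were called with the block and 35 without it.

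The log2 fold change with pregnancy changed sign for 6 uncalled values when 1 library was left out. It ran from -0.48 to 1.05 for PTGFR and from -1.04 to 1.90 for SLCO2A1 in GE, from -0.19 to 1.009 for OXTR, from -0.36 to 0.98 for PTGS2 and from -0.38 to 0.028 for PTGER4 in BV, and from -0.056 to 0.14 for PTGIS in S. Without single gilts, differences between compartments ran from -0.41 to 0.43 (GE minus LE) and from -0.62 to 0.30 (S minus LE) for PTGER2 and from -0.87 to 0.97 and from -0.30 to 0.58 for SLCO2A1. Over the named genes, 295 of 310 values under other settings and 381 of 417 with a library or gilt left out kept their direction and their side of the limit.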
